A study of Mus musculus with 6 samples.

Results

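The genes described here are 10 parts of the NF-kB system: the 5 subunit genes Nfkb1, Nfkb2, Rela, Relb and Rel, and the restraining or modulating genes Nfkbia, Nfkbie, Nfkbiz, Tnfaip3 and Tnip3. They were chosen by symbol, with earlier results of these data known. Each was found once, and they are 10 of the 38124 genes in the deposited table. Poly(A) RNA was profiled in wild-type C57BL mouse macrophages grown from bone marrow. In 3 libraries the macrophages had been kept for 24 hr with thymocytes killed by dexamethasone, a synthetic glucocorticoid, at a stated ratio of 1:40, and the dead cells were taken off before RNA extraction. The 3 control libraries came from untreated macrophages of the same kind. The labels call the libraries biological replicates without saying whether they came from separate mice, so the tests measure the spread between these libraries.

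NF-kB is a family of transcription factors that act as dimers. Rela, Relb and Rel encode subunits with their own transactivation domain, while Nfkb1 and Nfkb2 encode the precursors p105 and p100, which are processed to p50 and p52. IkB proteins hold the dimers in the cytoplasm until the IkB kinase marks them for degradation, and several inhibitor genes are themselves switched on by NF-kB, which gives the pathway negative feedback. In macrophages the pathway is best known for driving cytokine and chemokine genes after Toll-like receptor or TNF receptor stimulation.

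The recovered depth was 22782450 to 25933208 mapped reads in libraries with apoptotic cells and 19315132 to 23907256 in untreated libraries. Across tested genes, Pearson r on log2(RPKM + 1), where RPKM is the read number scaled by gene length and library size, was 0.994 to 0.998 between libraries of 1 group and 0.935 to 0.940 between groups. Of the 10173 genes tested with limma, 18.8% were called higher and 46.0% lower with apoptotic cells (adjusted p under 0.05), with a median log2 change of -0.13. The split depends on the scaling between libraries: 1915 genes were higher and 4679 lower as deposited, but 3234 were higher and 2832 lower once libraries were scaled by the median of ratios. All 10 macrophage markers were tested. Of these, 7 were called lower with apoptotic cells, 2 higher (Lyz2 and Mertk) and 1 neither, and the split was 5 lower and 3 higher once libraries were scaled by the median of ratios. Their summed level was 20400 to 22800 RPKM with apoptotic cells and 16200 to 17000 RPKM without, a sum made up mostly of Lyz2. Among those that fell, Itgam averaged 33.1 RPKM with apoptotic cells and 119 RPKM without, Sirpa 224 RPKM with and 554 RPKM without, and Fcgr1 7.43 RPKM with and 52.7 RPKM without. The part of these shifts in the NF-kB gene values was not tested. Of 20 thymocyte markers, 5 were at 0 in all 6 libraries (Cd3e, Cd8b1, Rag2, Ptcra and Themis), and the summed level was 2.36 to 3.02 RPKM with apoptotic cells and 5.75 to 6.41 RPKM without. Most of that difference came from Cd4 and Lat, while Cd3d was at 0.0292, 0.0332 and 0.0642 RPKM with apoptotic cells and at 0 in all untreated libraries. The 7 red cell markers summed to 0.998 to 1.54 RPKM with apoptotic cells and to 0 to 0.106 RPKM without. The 6 neutrophil markers summed to 36.5 to 39.8 RPKM with apoptotic cells and 6.28 to 6.87 RPKM without. Most of that sum came from S100a8 and S100a9, while the neutrophil surface gene Ly6g was at 0 in all libraries. The 5 B cell markers summed to at most 0.596 RPKM and the 6 dendritic cell markers to at most 0.208 RPKM in any library. In bulk RNA, fewer cells of a type and less RNA per cell cannot be told apart.

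Promoter sequences are shown for 5 of the genes because many NF-kB regulators are known NF-kB targets. RefSeq promoter windows (GRCm38.p6, 250 bases before to 50 after the start) were at hand for 7 of the 10 genes: Nfkb2, Rela, Rel, Nfkbia, Nfkbie, Tnfaip3 and Tnip3. The kappa B consensus was searched on both strands, with overlapping matches merged. The stretches below run 5′ to 3′ on the gene's strand, and capitals mark each match. For Nfkbia and Tnip3, the only gene that rose and the gene that fell most, the whole upstream part is given.
Nfkbia (chr12:55492648-55492897, minus strand): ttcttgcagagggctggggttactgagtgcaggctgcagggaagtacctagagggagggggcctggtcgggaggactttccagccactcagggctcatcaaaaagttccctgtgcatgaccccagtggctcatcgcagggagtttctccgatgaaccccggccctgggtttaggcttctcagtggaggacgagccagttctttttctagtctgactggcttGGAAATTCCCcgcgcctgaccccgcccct
Tnip3 (chr6:65590148-65590397, plus strand): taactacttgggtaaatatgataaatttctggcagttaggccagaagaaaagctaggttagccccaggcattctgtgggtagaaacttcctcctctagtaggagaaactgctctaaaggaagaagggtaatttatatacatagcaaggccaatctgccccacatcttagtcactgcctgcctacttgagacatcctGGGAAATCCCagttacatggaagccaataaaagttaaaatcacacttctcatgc
Nfkb2 (chr19:46304673-46304736, plus strand): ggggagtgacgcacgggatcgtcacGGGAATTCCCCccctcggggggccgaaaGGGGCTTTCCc
Rel (chr11:23771026-23771086, minus strand): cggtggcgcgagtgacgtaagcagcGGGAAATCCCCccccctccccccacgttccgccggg
Nfkbie (chr17:45555569-45555628, plus strand): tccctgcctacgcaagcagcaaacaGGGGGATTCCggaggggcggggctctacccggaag

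Of the 7 genes with a window, 6 held at least 1 kappa B match, all but Rela. Among all 32851 promoter windows of the same length, 8.46% held a match, and of the 7420 tested genes with a window, 12.3% held one in any of their windows. That share was 10.9% of the genes called higher and 14.3% of those called lower. The match in Nfkbia, which rose, began 29 bases before the start, and the match in Tnip3, which fell most, began 54 bases before it. Nfkb2 has 3 windows, all with a match, of which 2 start inside the gene as the deposited table draws it, overlap and share a match. Tnfaip3 has 2 windows, of which 1 held matches, but its RefSeq start lies 247 bases inside the gene as the deposited table draws it. The palindromic glucocorticoid receptor element, searched on both strands, was in 0 of the 10 windows of these genes and in 0.475% of all windows. With an element this rare, 10 windows are too few to show a difference. A match describes letters in these windows and was not tested as a binding site.

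After exposure to apoptotic thymocytes, 9 of the 10 genes fell and 1, Nfkbia, rose (limma on log2(RPKM + 1), Benjamini-Hochberg adjusted p under 0.05). Over all tested genes, 46.0% were lower, 18.8% higher and 64.8% changed in either direction. The 9 genes that fell include all 5 subunits. The falls differed widely in size, between 1.29-fold for Rela and 48.2-fold for Tnip3. In all 10 genes the 3 libraries of one group lay wholly above or below those of the other, which was so for 69.6% of tested genes. All 3 exposed libraries lay below all 3 untreated ones in 9 of the 10 genes, which was so for 49.1% of tested genes. These counts rest on the same values as the calls and add no separate support. Tnip3 and Nfkbiz were under 1 RPKM in all libraries with apoptotic cells and were tested only because of their untreated level. These 2 genes could enter only as genes that fell, and the count of 9 includes them. Where 1 untreated library was left out they were not tested, and 7 genes were lower and 1 higher. The median log2 change of the 10 genes, these 2 included, was -1.02, beside -0.13 for all tested genes.

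**Figure D1:**
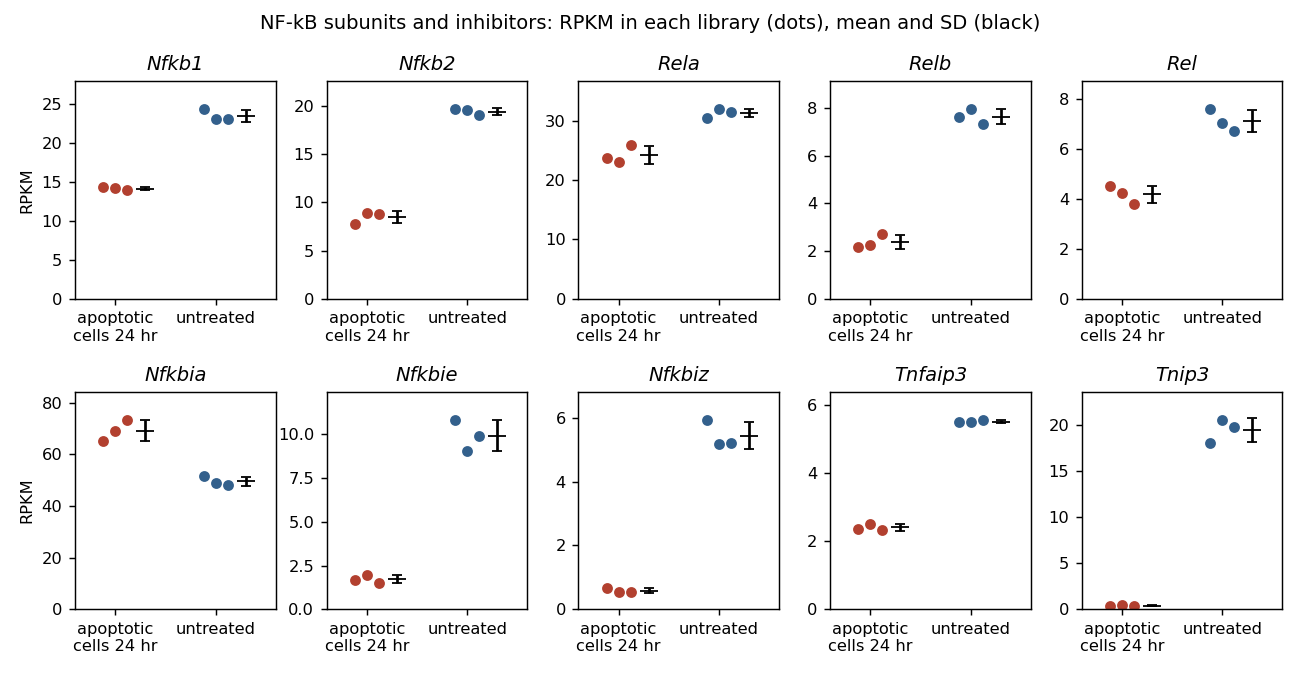
RPKM of each gene (vertical axis, from 0, own scale per panel) in the 3 libraries with apoptotic cells for 24 hr (left, red) and the 3 untreated libraries (right, blue), with mean and SD in black. The groups do not overlap in any panel, and only in the Nfkbia panel do the red points lie above the blue ones.

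Rela encodes p65, which pairs with p50 in the most common NF-kB dimer. Its level (ENSMUSG00000024927, chromosome 19, 5637483 to 5648130, mm10) was 23.8, 23.0 and 25.9 RPKM in libraries with apoptotic cells and 30.5, 31.9 and 31.6 RPKM in untreated libraries. The groups did not overlap, but the gap was small. Rela fell 1.29-fold (log2 change -0.36, SE 0.0516, limma adjusted p = 0.00026), the smallest fall of the 9, and with median-of-ratios scaling the log2 change was -0.20 (limma adjusted p = 0.0133).

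Nfkb1, the gene of p105 and p50, fell further than its partner. Its level (ENSMUSG00000028163, chromosome 3, 135584655 to 135691547) was 14.4, 14.1 and 13.9 RPKM with apoptotic cells and 24.3, 23.0 and 23.1 RPKM without. The groups lay far apart beside their spread, with an SD of 0.229 RPKM with apoptotic cells and 0.717 RPKM without. The fall was 1.66-fold (log2 change -0.69, SE 0.0432, limma adjusted p = 9.33e-07).

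Rel encodes c-Rel, a subunit most abundant in lymphoid and myeloid cells. Its level (ENSMUSG00000020275, chromosome 11, 23741514 to 23770970) was 4.49, 4.22 and 3.79 RPKM with apoptotic cells and 7.57, 7.02 and 6.72 RPKM without. The fall of 1.70-fold was close to that of Nfkb1 (log2 change -0.65, SE 0.0662, limma adjusted p = 2.7e-05).

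The subunit genes of the non-canonical arm, Nfkb2 and Relb, fell more. In that arm the kinase NIK leads to processing of p100 to p52, which pairs with RelB. Nfkb2 (ENSMUSG00000025225, chromosome 19, 46304737 to 46312090) was at 7.75, 8.90 and 8.83 RPKM with apoptotic cells and 19.7, 19.6 and 19.0 RPKM without. It fell 2.29-fold (log2 change -1.11, SE 0.0569, limma adjusted p = 2.33e-07). Relb (ENSMUSG00000002983, chromosome 7, 19606217 to 19629438) was at 2.18, 2.27 and 2.71 RPKM with apoptotic cells and 7.64, 7.95 and 7.33 RPKM without. It fell 3.20-fold (log2 change -1.35, SE 0.0682, limma adjusted p = 2.05e-07), the largest fall among the subunits. Map3k14, which encodes NIK, was at 2.85 ± 0.177 RPKM with apoptotic cells and 3.40 ± 0.0464 RPKM without (SD, n = 3 each; log2 change -0.19), and it passed the threshold as deposited but not with either rescaling.

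Because the subunits fell by different amounts, their mix within each library was compared, a measure that does not depend on scaling between libraries. The 5 subunit genes summed to 53.4 ± 1.48 RPKM with apoptotic cells and 89.0 ± 1.07 RPKM without (SD, n = 3 each). Rela made up 45.2, 43.8 and 46.9% of that sum in libraries with apoptotic cells and 34.1, 35.7 and 36.0% in untreated libraries. Every exposed library was above every untreated one, by 10.1 percentage points on average. The Nfkb2 share was 15.9 ± 1.11% with apoptotic cells and 21.8 ± 0.12% without, and the Relb share was 4.47 ± 0.402% with apoptotic cells and 8.58 ± 0.269% without (SD, n = 3 each). The Nfkb1 share was 26.5 ± 1.11% with apoptotic cells and 26.4 ± 0.688% without, and the Rel share was 7.82 ± 0.851% with apoptotic cells and 7.98 ± 0.404% without, with overlapping groups in both.

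The ratio of Nfkb2 to Nfkb1 was 0.540, 0.629 and 0.635 in libraries with apoptotic cells and 0.810, 0.852 and 0.825 in untreated libraries. For the Rela, Nfkb2 and Relb shares and this ratio the exact two-sided permutation p was 0.10, the smallest that 3 against 3 libraries allow, and 0.14 after adjustment over the 7 within-library values compared. For the Nfkb1 and Rel shares it was 0.90, with 0.90 after adjustment (exact permutation test). The 7 within-library values rest on the same RPKM as the calls, and the shares depend on one another, so they add no separate support.

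**Figure D2:**
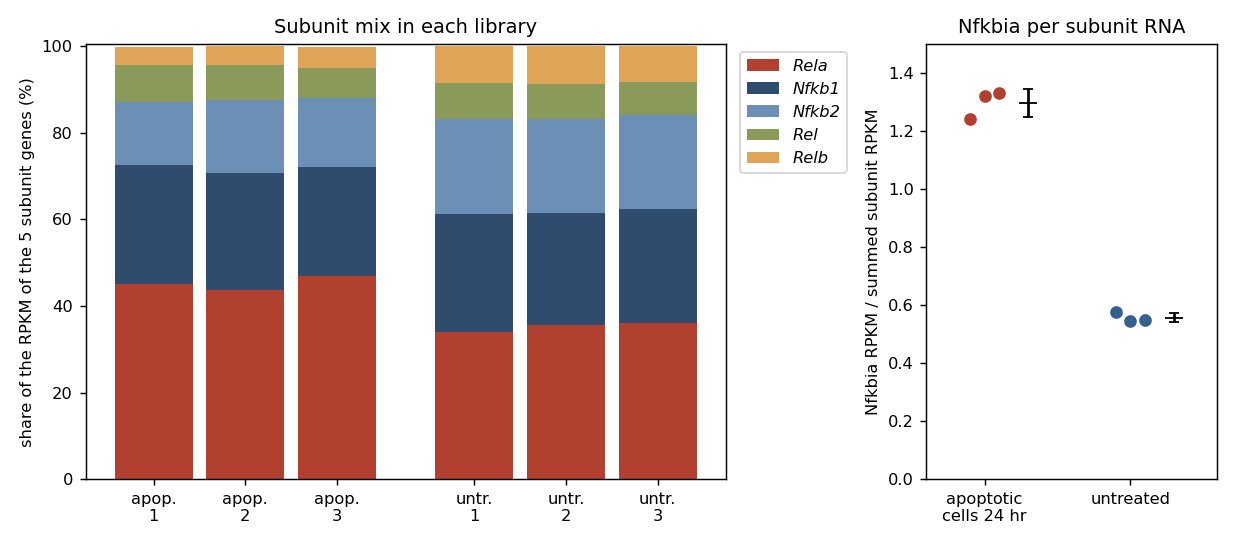
Left, share of each subunit gene in the summed RPKM of the 5 subunit genes (percent, bars stacked from 0) in each library with apoptotic cells (apop.) and each untreated library (untr.). Right, Nfkbia RPKM divided by the summed subunit RPKM in each library, with mean and SD in black. The Rela share was 43.8 to 46.9% with apoptotic cells and 34.1 to 36.0% without, and the ratio was 1.24 to 1.33 with apoptotic cells and 0.546 to 0.575 without.

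Among the inhibitors, Nfkbia went the other way from all other genes of the group. It encodes IkB-alpha, the fast-turning inhibitor that NF-kB induces and that ends the response. Its level (ENSMUSG00000021025, chromosome 12, 55489411 to 55492647) was 65.3, 69.1 and 73.3 RPKM with apoptotic cells and 51.6, 48.9 and 48.2 RPKM without. The lowest exposed library stood above the highest untreated one. Nfkbia rose 1.40-fold (log2 change 0.47, SE 0.0526, limma adjusted p = 4.95e-05), and with median-of-ratios scaling the log2 change was 0.64. The reads behind it, at the smallest gene length that makes all 6 read numbers whole, were 2670, 2482 and 2721 with apoptotic cells and 1572, 1842 and 1755 without.

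Relative to the summed subunits, Nfkbia RNA was 1.24, 1.32 and 1.33 in libraries with apoptotic cells and 0.575, 0.546 and 0.550 in untreated libraries. The means were 1.30 ± 0.0469 with apoptotic cells and 0.557 ± 0.0160 without (SD, n = 3 each; exact two-sided permutation p = 0.10, adjusted 0.14). Exposed macrophages thus held more IkB-alpha RNA than RNA of all 5 subunits together on a per-length scale, and untreated macrophages held less.

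Nfkbie encodes IkB-epsilon, a slower inhibitor that acts mainly on dimers with Rela and Rel. Its level (ENSMUSG00000023947, chromosome 17, 45555716 to 45563169) was 1.70, 1.98 and 1.49 RPKM with apoptotic cells and 10.8, 9.02 and 9.90 RPKM without. It fell 5.75-fold (log2 change -2.00, SE 0.0821, limma adjusted p = 5.32e-08). The remaining classical inhibitor gene, Nfkbib (IkB-beta), which is not one of the 10, was at 12.1 ± 0.589 RPKM with apoptotic cells and 11.8 ± 0.0929 RPKM without and did not pass (SD, n = 3 each; limma adjusted p = 0.545). With median-of-ratios scaling it was called higher (log2 change 0.19, limma adjusted p = 0.0106). It overlaps Sirt2 on the opposite strand, at 42.7 RPKM on average with apoptotic cells and 34.7 RPKM without, so its value is uncertain, as use of strand in counting is not stated. Across these 3 IkB genes, Nfkbia made up 83.3 ± 0.383% of the summed RPKM with apoptotic cells and 69.5 ± 0.666% without, and Nfkbie made up 2.08 ± 0.348% with apoptotic cells and 13.9 ± 0.824% without (SD, n = 3 each). The sum of the 3 was 83.1 ± 4.41 RPKM with apoptotic cells and 71.3 ± 2.56 RPKM without.

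Nfkbiz encodes IkB-zeta, a nuclear IkB protein that NF-kB induces and that is needed for a set of secondary inflammatory genes. Its level (ENSMUSG00000035356, chromosome 16, 55811375 to 55838899) was 0.676, 0.542 and 0.533 RPKM with apoptotic cells and 5.92, 5.16 and 5.21 RPKM without. The fall was 9.30-fold (log2 change -2.02, SE 0.0682, limma adjusted p = 1.60e-08). It rests on 88, 62 and 63 reads with apoptotic cells and 574, 619 and 603 reads without.

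Tnfaip3 encodes A20, a ubiquitin-editing enzyme that restrains signalling upstream of the IkB kinase. Its level (ENSMUSG00000019850, chromosome 10, 19000910 to 19015657) was 2.36, 2.51 and 2.33 RPKM with apoptotic cells and 5.49, 5.48 and 5.55 RPKM without. The untreated libraries were nearly identical, with an SD of 0.0369 RPKM. Tnfaip3 fell 2.29-fold (log2 change -0.94, SE 0.0502, limma adjusted p = 3.17e-07).

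Tnip3 encodes a protein of the family that binds A20. It showed the largest fall of the group and ranked 6 from the lowest log2 change among the 10173 tested genes. Its level (ENSMUSG00000044162, chromosome 6, 65590398 to 65634040) was 0.406, 0.451 and 0.349 RPKM with apoptotic cells and 18, 20.5 and 19.7 RPKM without. The ratio of means was 48.2-fold, while the log2 change was -3.86 (SE 0.0619, limma adjusted p = 2.08e-10), since adding 1 RPKM understates the fall of a gene that ends near 0. With 0.1 RPKM added, the log2 change was -5.28. The recovered reads were 41, 40 and 32 with apoptotic cells and 1353, 1906 and 1771 without, so the gene remained detected. For the other members of the family, Tnip1 was at 16.8 ± 1.22 RPKM with apoptotic cells and 20.5 ± 0.966 RPKM without, and Tnip2 was at 6.62 ± 0.665 RPKM with apoptotic cells and 9.97 ± 0.251 RPKM without (SD, n = 3 each). Tnip2 was called lower under every alternative, while Tnip1 was called lower as deposited but not with either rescaling (limma adjusted p = 0.176 and 0.185).

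**Figure D3:**
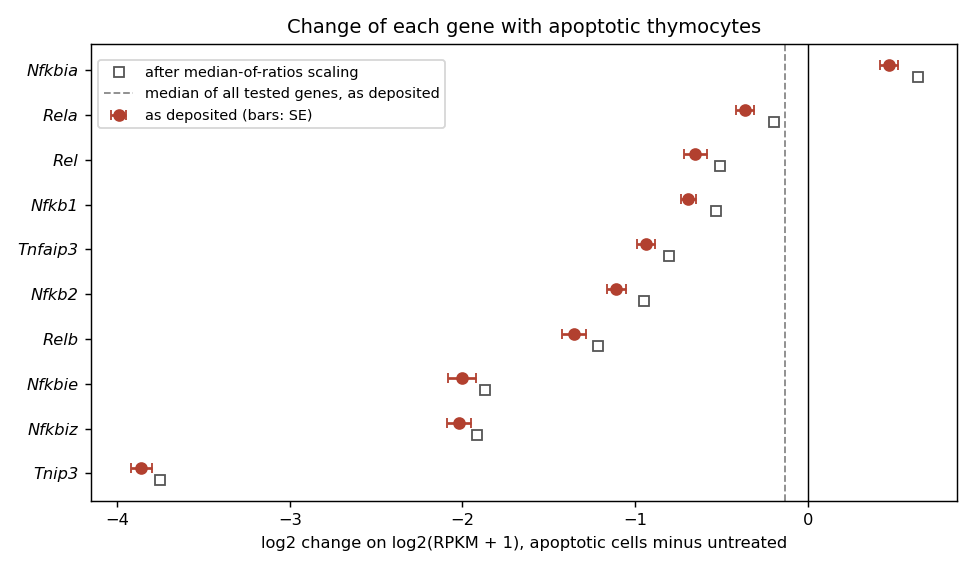
Log2 change of each gene on the log2(RPKM + 1) scale, apoptotic cells minus untreated, with values as deposited (red, bars are SE) and after median-of-ratios scaling (squares). The dashed line marks the median of all tested genes, -0.13 as deposited. Only Nfkbia lies right of 0 under both scalings, and Tnip3 lies far left at -3.86.

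The order of levels also changed. With apoptotic cells, Nfkbia was the most abundant per length, followed by Rela, Nfkb1, Nfkb2, Rel, Tnfaip3, Relb, Nfkbie, Nfkbiz and Tnip3, and of neighbours in this order only Tnfaip3 and Relb overlapped in range. Without apoptotic cells the order was Nfkbia, Rela, Nfkb1, Nfkb2, Tnip3, Nfkbie, Relb, Rel, Tnfaip3 and Nfkbiz, and 3 pairs of neighbours overlapped in range, Nfkb2 with Tnip3, Relb with Rel and Tnfaip3 with Nfkbiz. Tnip3, level with Nfkb2 in untreated macrophages, was thus the lowest of the 10 after exposure.

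The nearest tested genes were sought by Euclidean distance of log2(RPKM + 1) over the 6 libraries. The search left out predicted, clone-based and mitochondrially encoded genes and all genes on chromosome 18. Among the genes searched, those nearest to Nfkbia were Ostf1 (distance 0.165), Plin3 (0.185) and Hist1h2bc (0.193). Ostf1 was at 71.0 RPKM on average with apoptotic cells and 51.1 RPKM without. In the same search the genes nearest to Tnip3 were Pcdh7 (distance 0.457), Fcrls (0.614) and Nptx1 (0.616). Pcdh7 was at 0.603 RPKM on average with apoptotic cells and 21.8 RPKM without. Hist1h2bc belongs to a multigene family, so its reads may be shared with near-identical copies.

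Genes upstream of NF-kB moved in both directions. Of 29 receptor and adaptor genes, 27 were tested. Of these, 7 went up, 13 went down and 7 were below the threshold, beside 18.8% higher and 46.0% lower over all tested genes. Of the 13, Cd40 and Traf1 were under 1 RPKM in all exposed libraries and were tested only through their untreated level. The median log2 change was -0.13, as for all tested genes. Cd14, the co-receptor for lipopolysaccharide, was at 44.6, 52.3 and 54.6 RPKM with apoptotic cells and 194, 208 and 198 RPKM without (log2 change -1.97, limma adjusted p = 2.57e-08). Tlr2, a receptor for bacterial lipoproteins, was at 9.84 ± 0.969 RPKM with apoptotic cells and 30.9 ± 0.399 RPKM without. Tnfrsf11a, the gene of the receptor RANK, was at 9.05 ± 0.150 RPKM with apoptotic cells and 24.7 ± 0.579 RPKM without. The signalling kinase gene Irak2 was at 5.76 ± 0.191 RPKM with apoptotic cells and 15.4 ± 0.148 RPKM without. All 4 fell, and they are the list's genes with the smallest p. Myd88, the shared adaptor of Toll-like receptors, did not pass, at 26.2 ± 2.06 RPKM with apoptotic cells and 27.1 ± 0.754 RPKM without (SD, n = 3 each; limma adjusted p = 0.462). It overlaps Acaa1a on the opposite strand, at 19.9 RPKM on average with apoptotic cells and 20.2 RPKM without.

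Of 24 kinase and ubiquitin ligase genes between receptor and IkB, 5 were called higher, 12 lower and 7 neither. The shares over all tested genes were 18.8% higher and 46.0% lower. The median log2 change of the 24 genes was -0.16. Scaling by the median of ratios moved their split to 8 higher and 7 lower, beside 3234 higher and 2832 lower over all tested genes with that scaling. The catalytic IkB kinase genes did not pass: Chuk was at 13 ± 1.96 RPKM with apoptotic cells and 13.1 ± 0.626 RPKM without, and Ikbkb was at 5.43 ± 0.348 RPKM with apoptotic cells and 5.67 ± 0.340 RPKM without (SD, n = 3 each; limma adjusted p = 0.849 and 0.464). Malt1, the paracaspase gene, fell to 4.25 ± 0.483 RPKM with apoptotic cells, against 9.89 ± 0.297 RPKM without. Ikbke, an IkB kinase-related gene, fell to 6.26 ± 0.282 RPKM with apoptotic cells, against 10.1 ± 0.345 RPKM without. Birc3, a ubiquitin ligase gene that NF-kB is known to induce, rose to 14.2 ± 0.608 RPKM with apoptotic cells, against 7.49 ± 0.372 RPKM without. Ikbkg, which encodes the regulatory subunit NEMO, stood at 33 ± 0.521 RPKM with apoptotic cells and 9.46 ± 0.131 RPKM without. Ikbkg overlaps G6pdx on the opposite strand, which itself stood at 129 RPKM on average with apoptotic cells and 70.9 RPKM without, and since use of strand in counting is not stated, the Ikbkg value is uncertain.

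Of 23 other restraining genes, all tested, 14 were called lower, 3 higher and 6 neither, beside 46.0% lower and 18.8% higher over all tested genes. Their median log2 change was -0.21, beside -0.13 for all tested genes. Scaling by the median of ratios moved the split to 10 lower and 6 higher, beside 2832 lower and 3234 higher over all tested genes with that scaling. Without untreated replicate 3 only N4bp1 was called higher, and Bcl3 and Nlrc5 missed the threshold (limma adjusted p = 0.0507 and 0.064). Nfkbid, another nuclear IkB gene, fell to 4.69 ± 0.460 RPKM with apoptotic cells, against 8.61 ± 0.494 RPKM without. Zc3h12a, the gene of the RNA-degrading regulator Regnase-1, fell to 7.45 ± 0.0677 RPKM with apoptotic cells, against 12.4 ± 0.209 RPKM without. Commd1, whose product promotes the degradation of Rela, fell to 6.13 ± 0.373 RPKM with apoptotic cells, against 10.02 ± 0.367 RPKM without. It overlaps B3gnt2 on the same strand, at 3.55 RPKM on average with apoptotic cells and 8.28 RPKM without, so its value is uncertain. N4bp1, a suppressor of cytokine production, rose to 15.2 ± 0.143 RPKM with apoptotic cells, against 8.30 ± 0.166 RPKM without. Bcl3, a nuclear IkB gene whose product binds p50 and p52, was among the 3 that rose, at 6.55 ± 0.606 RPKM with apoptotic cells and 5.46 ± 0.115 RPKM without (SD, n = 3 each).

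Known NF-kB target genes fell for the most part. Of 35, 27 were tested. Of these, 20 were called lower, 4 higher and 3 neither, beside 46.0% lower and 18.8% higher over all tested genes. The median log2 change was -0.61, beside -0.13 for all tested genes. Cd83, a maturation marker of antigen-presenting cells, fell to 1.73 ± 0.249 RPKM with apoptotic cells, against 25.7 ± 1.69 RPKM without (SD, n = 3 each; log2 change -3.29, limma adjusted p = 1.43e-09). Tnf, at 1.63 RPKM with apoptotic cells and 19.3 RPKM without, and the urokinase gene Plau, at 2.87 RPKM with apoptotic cells and 135 RPKM without, fell as well (means of 3 libraries). The 4 that rose were Slc7a11, Vcam1, Ier3 and Tnfaip2, of which Vcam1 was tested only through its exposed level. Among the 20 that fell, Cxcl1 was under 1 RPKM in all exposed libraries and was tested only through its untreated level. Slc7a11, the cystine transporter gene, which is also a known target of other stress factors, was at 35.9 ± 4.80 RPKM with apoptotic cells and 1.62 ± 0.134 RPKM without. The 8 target genes too low to be tested include Il1b, at 0.0727 ± 0.0469 RPKM with apoptotic cells and 1.12 ± 0.170 RPKM without (SD, n = 3 each). The list is drawn from general knowledge of the pathway and holds genes with many other regulators.

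**Figure D4:**
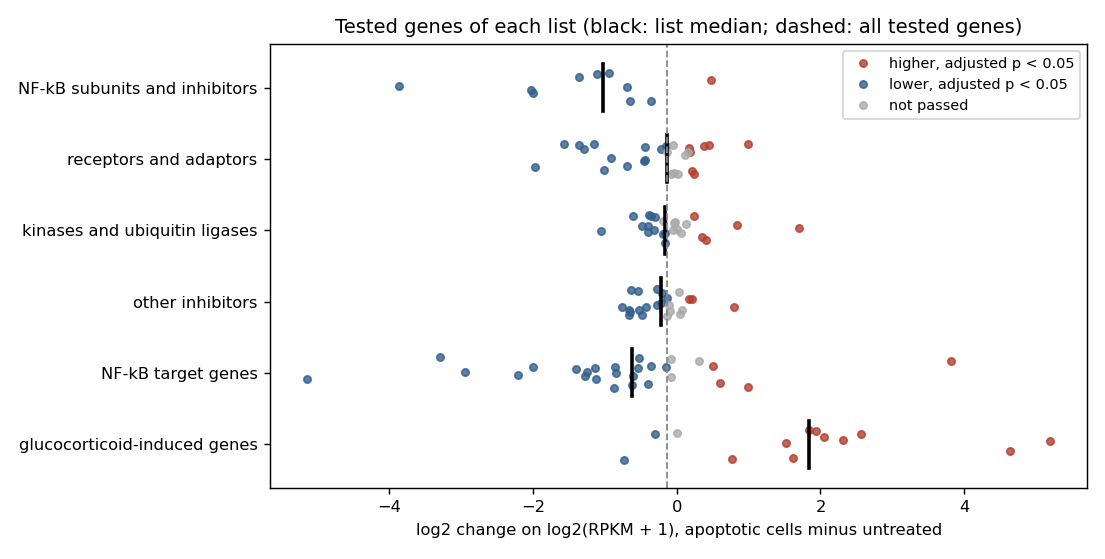
Log2 change on the log2(RPKM + 1) scale, apoptotic cells minus untreated, of each tested gene of 6 lists. Red points were called higher, blue points lower and grey points did not pass. Black bars are list medians, from -1.02 for the subunits and inhibitors to 1.83 for the glucocorticoid-induced genes, and the dashed line is the median of all tested genes. The lists with the lowest and the highest median both hold genes that passed the filter through 1 group only.

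Glucocorticoid-induced genes moved in the same direction as Nfkbia, which glucocorticoids are also known to induce. Of 14 such genes, 13 were tested. The calls were 10 higher, 2 lower and 1 neither, beside 18.8% higher and 46.0% lower over all tested genes. The median log2 change was 1.83. Like the target list, this list is drawn from general knowledge, and it was chosen with earlier results of these data known. Among the 10 that rose, 4 were under 1 RPKM in all untreated libraries and were tested only through their exposed level. These 4 could enter only as genes that rose, and the count of 10 and the median include them. The median is the value of 1 of these 4. Tsc22d3, which encodes the glucocorticoid-induced protein GILZ that binds NF-kB, rose to 77.4 ± 2.99 RPKM with apoptotic cells, against 14.8 ± 1.34 RPKM without (SD, n = 3 each; log2 change 2.32, limma adjusted p = 4.55e-09). Fkbp5, Ddit4 and the clock gene Per1 were the others with the smallest p. Per1 was at 16.0 ± 0.247 RPKM with apoptotic cells and 4.57 ± 0.202 RPKM without (SD, n = 3 each). The 2 that fell were Errfi1 and Zfp36, and Sgk1 did not pass as deposited but was called higher with median-of-ratios scaling (limma adjusted p = 0.0106). The summed level of the 14 genes was 391 to 423 RPKM with apoptotic cells and 154 to 163 RPKM without. The thymocytes had been killed with dexamethasone, and the part of this agent in the changes of Nfkbia or of the other NF-kB genes was not tested.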

How the data were processed

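The deposited values were RPKM for each gene in each library, per the file headers. The submitters' processing notes name the build GRCm38, or mm10. The aligner, counting program, use of strand and gene model release are not given in the sources used here. Each column matched the title of 1 sample. Genes that reached 1 RPKM in 3 or more libraries were tested on log2(RPKM + 1) in R 4.3.3 with limma 3.58.1. The model held only the group, the variance prior followed mean expression, and p was adjusted over all 10173 genes by the Benjamini-Hochberg method. This fit on normalised values replaces the count model that raw counts would have had. Log2 changes are apoptotic cells minus untreated, on the log2(RPKM + 1) scale, and understate the change of low genes. Folds are ratios of mean RPKM. The SE is moderated. Shares and ratios within a library were compared with exact permutation tests in SciPy 1.17.1. The fit was also run on simulated reads in which most genes did not change. In these data most tested genes were called, so that run does not cover a shift of this breadth.

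Depth was recovered as the number of mapped reads that makes RPKM times exon length whole, using GENCODE M21 lengths. Reads of a gene use that length (Relb, Nfkbiz, Tnfaip3) or the smallest length that makes all 6 numbers whole within 0.001 (the other 7 genes), so the true numbers could be a multiple. Reads cover counting error only.

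The members and lists were chosen with earlier results of these data known. The genes named are the 10 members, the 4 tested genes with the smallest p in each further list, the 3 highest of each marker list at most and the 3 nearest to the members with the highest and lowest change. Map3k14, Nfkbib, Tnip1, Tnip2, Myd88, Chuk, Ikbkb, Bcl3, Nlrc5, Cd40, Traf1, Cxcl1, Il1b and the marker, target and glucocorticoid genes named as exceptions were added for their role or after their values were seen, as were the shares of the 3 IkB genes. Of 189 list entries, 4 were matched by identifier. Protein sequences were not used here.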

Additional observations from a re-analysis of the deposited data

How the results depend on the processing

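All 10 members kept their direction and call in each of the 184 alternative fits that gave them a value, with adjusted p of at most 0.0133 (limma). Fits changed the pseudocount, filter, scaling, trend or block, or left out a library. Tnip3 and Nfkbiz fell below the filter when an untreated library was left out, so 7 members were lower there and 9 otherwise. A filter on the mean and leave-one-out fits with the tested genes kept, both chosen after seeing the data, gave 9 lower and 1 higher. The 4 genes of smallest p in each further list kept direction and call in all 377 of their fits. They were picked by p in the main fit, so this was largely set by the choice and does not speak for their lists. Of 33 other genes named or nearest, 23 did so. Of the other 10, the calls of Map3k14 (-0.0643 and -0.0617) and Tnip1 (-0.109 and -0.105) were lost with median-of-ratios and upper-quartile scaling, and Nfkbib (0.192 and 0.195) and Sgk1 (0.166 and 0.169) gained one. Bcl3 and Nlrc5 lost theirs without untreated replicate 3, Nlrc5 also without apoptotic replicate 1, and Lyz2 with no filter, where 1 macrophage marker was higher. Uncalled changes turned sign with the same 2 scalings for Chuk (0.136 and 0.139), Ikbkb (0.0912 and 0.0942) and Myd88 (0.112 and 0.116). Without 1 library, also with the tested genes kept, Chuk ranged between -0.103 and 0.0964 (0.014 without untreated replicate 1), Myd88 between -0.0951 and 0.0107, Nfkbib between -0.0021 and 0.055, and Sgk1 between -0.0219 and 0.0154 (-0.0116 without apoptotic replicate 2).

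With median-of-ratios and upper-quartile scaling, 3234 and 3280 of all tested genes were higher and 2832 and 2814 lower, kinases and ubiquitin ligases had 8 higher and 7 lower under both, and other inhibitors had 6 higher under both. These scalings shift all changes upward, to a median of 0.0154 and 0.0183. Leaving out 1 library gave 1 to 3 other inhibitors higher (1 without untreated replicate 3), also with the tested genes kept. It gave 6 to 10 glucocorticoid-induced genes higher, with 6 where an exposed library was left out and fewer genes passed the filter. The Nfkb1 share difference ranged between -0.276 and 0.77 percentage points and the Rel share difference between -0.524 and 0.307 without 1 library, and was 0.182 for Rel with medians. Neither kept 1 direction. The Rela share difference stayed between 9.26 and 10.9.

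Whether the replicate numbers pair the libraries is not stated. Deviations of same-numbered libraries correlated at 0.197, -0.031 and -0.162, and those of other-numbered libraries at -0.319 to 0.326. With 3 libraries per group these values cannot settle whether the libraries were paired. With the replicate block, 9 members were lower and 1 higher, and 1904 genes were higher and 4627 lower in all. Depth limits Tnip3 and Nfkbiz most, with 32 to 88 reads in exposed libraries.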
